A study of Mus musculus with 14 samples.

Results

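Mammalian genomes keep most small nucleolar RNAs (snoRNAs) inside the introns of other genes, and a group of noncoding genes has little other known product than the snoRNAs in its introns. Of 8 such genes taken by name, *Gas5* and the small nucleolar RNA host genes *Snhg1*, *Snhg3*, *Snhg5*, *Snhg6*, *Snhg8*, *Snhg12* and *Snhg15*, 6 had a row in the tables of both mice, out of 20515 genes with a usable symbol. *Snhg1* and *Snhg8* were not analysed here. The tables hold exon and intron FPKM, which are fragments per kilobase of feature, scaled by a factor for each library. They come from total RNA of whole mammary gland on day 10 of lactation (L10), from 2 mice of the genotype WT_wTbrg4, also written wt/Wap-Tbrg4. These mice carry one intact allele and one allele on which a CRISPR-Cas9 deletion joined the *Wap* super-enhancer, promoter and first exon to the body of *Tbrg4*. Homozygotes of this line die as embryos, so the tissue always keeps an intact allele. No RNA table of WT mice was used here, and no value below compares genotypes. The remaining 12 samples of the series are ChIP-seq and were not analysed here.

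SnoRNAs guide chemical changes of ribosomal and spliceosomal RNA. Box C/D snoRNAs bind fibrillarin, NOP56, NOP58 and SNU13 and direct methylation of ribose, and box H/ACA snoRNAs bind dyskerin, NHP2, NOP10 and GAR1 and direct the change of uridine to pseudouridine. In most hosts the snoRNA is trimmed out of the excised intron, while the spliced exons leave as a separate RNA. For *Gas5* and several Snhg genes the spliced RNA is translated over short frames and removed by nonsense-mediated decay, so the level of the exons and the level of the snoRNA need not move together. The value for introns counts any read between the exons, from unspliced RNA, an excised intron or a snoRNA.

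The introns of the 6 genes contained 19 snoRNA genes in the GENCODE M21 annotation, each in an intron of its own, out of 28 introns in all. Of these, 12 were box C/D, 6 were box H/ACA and 1, inside *Gas5*, had no class in the annotation. *Snhg3*, on the minus strand at chr4:132351933-132353686 of GRCm38, carried the longest ones, *Snora73a* and *Snora73b*, which act in cleavage of the ribosomal RNA precursor. They are shown first because the largest intron value of the group lay over the introns that contain them, with the terminal ACA box in capitals.
Snora73a: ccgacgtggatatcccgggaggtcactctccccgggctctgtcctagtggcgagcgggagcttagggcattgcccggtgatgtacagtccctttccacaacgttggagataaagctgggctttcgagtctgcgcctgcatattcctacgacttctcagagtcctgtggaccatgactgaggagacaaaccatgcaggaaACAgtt
Snora73b: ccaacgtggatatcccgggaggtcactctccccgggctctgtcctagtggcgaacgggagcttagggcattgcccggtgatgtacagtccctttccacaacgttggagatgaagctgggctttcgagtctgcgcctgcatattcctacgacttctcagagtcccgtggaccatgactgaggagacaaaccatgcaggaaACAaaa
Both were 205 bases long and 98.0% identical over the aligned bases, and no other place in the genome matched either of them at 90% identity over 90% of the length. *Snora9* of *Snhg15* (chr11:6525591-6528760, minus strand) and *Snora16a* of *Snhg12* (chr4:132308678-132311024, plus strand) are shown as the box H/ACA snoRNAs of the other hosts with high intron values relative to exons, with the ACA box in capitals.
Snora9: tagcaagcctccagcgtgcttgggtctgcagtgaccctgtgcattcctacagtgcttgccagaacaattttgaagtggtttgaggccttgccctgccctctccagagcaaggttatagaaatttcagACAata
Snora16a: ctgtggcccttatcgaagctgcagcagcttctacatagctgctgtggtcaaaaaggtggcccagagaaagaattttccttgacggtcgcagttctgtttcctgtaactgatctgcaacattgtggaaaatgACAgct
The hosts with lower ratios carried box C/D snoRNAs, shorter and with other conserved boxes. Here the letters TGATGA of box C and CTGA of box D are in capitals, for *Snord47* of *Gas5* (chr1:161034601-161038539, plus strand), *Snord50a* and *Snord50b* of *Snhg5* (chr9:88521052-88522897, minus strand) and *Snord87* of *Snhg6* (chr1:9942025-9944118, minus strand).
Snord47: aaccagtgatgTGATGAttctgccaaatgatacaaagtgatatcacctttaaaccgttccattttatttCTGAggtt
Snord50a: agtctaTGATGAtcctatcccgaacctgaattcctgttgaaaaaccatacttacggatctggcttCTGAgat
Snord50b: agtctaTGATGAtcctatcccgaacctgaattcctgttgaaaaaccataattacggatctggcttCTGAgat
Snord87: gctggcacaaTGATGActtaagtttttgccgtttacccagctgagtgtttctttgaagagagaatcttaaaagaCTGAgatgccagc
TGATGA stood within 20 bases of the start in 10 of the 12 box C/D genes, CTGA within 20 bases of the end in all 12, and ACA within 12 bases of the end in 5 of the 6 box H/ACA genes. These windows were read on the snoRNA strand only.

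The snoRNA genes also shared a position in the intron. Box C/D genes ended a median of 73.5 bases before the 3′ splice site, with a range of 66 to 313, and box H/ACA genes a median of 81 bases, with a range of 76 to 1595. *Snora9* gave the highest of these values, in an intron of 1868 bp. The gene structures differed: *Gas5* had 13 collapsed exons and 9 snoRNA genes, whereas *Snhg3* had 3 exons with a snoRNA gene in each of its 2 introns. SnoRNA sequence made up 31.1% of the intron bases of *Snhg3*, 27% of those of *Snhg12*, 20.2% in *Gas5* and 17.2% in *Snhg5*. In *Snhg15* and *Snhg6* it was 5.16% in each.

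**Figure D1:**
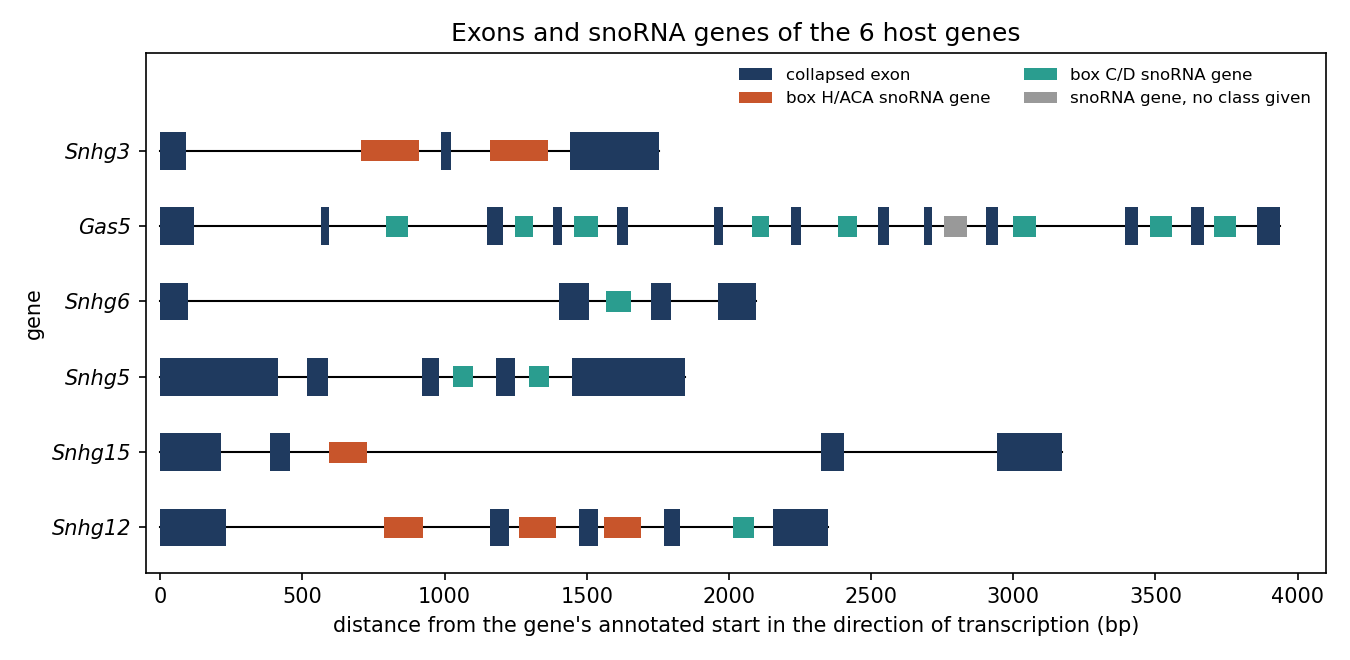
Exons (dark boxes) and snoRNA genes of the 6 host genes, drawn by distance in bp from the annotated start in the direction of transcription. Each snoRNA gene has an intron of its own, and the 3 genes with box H/ACA snoRNAs are *Snhg3*, *Snhg12* and *Snhg15*.

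The exon RNA of the 6 genes was far below the milk protein mRNAs that fill this tissue, with ranks by mean of 1369 to 7313 among 20515 genes. Their median exon FPKM was 9.975, compared with 5.7 for all genes averaging at least 1 exon or intron FPKM. *Snhg3* exons stood at 9.3 FPKM in replicate 1 and 34.1 FPKM in replicate 2. *Gas5*, named for its rise in growth-arrested cells, was at 20.9 and 20.6 FPKM, nearly the same in both mice. *Snhg6* was at 9.5 and 16.4 FPKM and *Snhg5* at 5.8 and 8.2 FPKM. *Snhg15* followed with 3.5 and 3.8 FPKM and *Snhg12* with 2.8 and 2.7 FPKM. All 6 passed the filter on low values. The order by mean did not separate *Snhg3* from *Gas5* or *Snhg6*, whose values lay within its range, and the ranges of the other neighbours, *Gas5* over *Snhg6*, *Snhg6* over *Snhg5*, *Snhg5* over *Snhg15* and *Snhg15* over *Snhg12*, did not overlap. Together the 6 genes held 0.00607% and 0.00480% of the summed exon FPKM in replicates 1 and 2. In whole tissue, fewer cells that use a gene and less of its RNA per cell cannot be told apart.

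The introns gave another order. *Snhg3* introns were at 356.3 FPKM in replicate 1 and 444.4 FPKM in replicate 2 (mean 400.4 ± 62.3, SD, n = 2), the third highest mean of all genes, behind *Csn2* and *Csn1s2a*, which encode caseins. This was 2.93-fold and 3.001-fold the intron FPKM of *Wap*, a major milk protein gene, in the same mice, and 3.92% and 4.20% of all intron FPKM. *Gas5* introns stood at 8.2 and 7.5 FPKM. The values were 3.4 and 3.8 FPKM for *Snhg15*, 1.3 and 1.9 FPKM for *Snhg12*, 1.3 and 1.7 FPKM for *Snhg5*, and 1.1 and 0.9 FPKM for *Snhg6*. The ranges of *Snhg12* and *Snhg5* overlapped, and every other neighbouring pair in the order of intron means was separated in both mice.

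The number of reads behind these values was approximated from their spacing. In short features of up to 500 bp, FPKM times length fell on steps of 99.5 for exons and 100 for introns in replicate 1. The steps were 196.25 and 198.75 in replicate 2. Of 35 to 56 values, 89.7% to 97.1% lay within 0.25 of a whole read. The step was chosen to bring these same values nearest to whole reads, so this share is no test of it. By these steps, 1 read was worth about as much FPKM in replicate 2 as a pair of reads in replicate 1. By this measure *Snhg3* introns held about 4692 and 2945 reads and its exons about 41 and 76. *Gas5* had about 130 and 65 exon reads and 272 and 125 intron reads, *Snhg6* 39 and 34 exon reads, and *Snhg5* 59 and 42. At the low end, *Snhg12* exons rested on about 17 and 8 reads and *Snhg15* exons on about 21 and 11, and the introns of *Snhg5* on 11 and 7. Intervals below are exact Poisson or Clopper-Pearson 95% intervals on these reads and cover counting error only. By these intervals, exon neighbours in the order after *Snhg3* overlapped in at least 1 mouse in every pair, and *Snhg3* and *Gas5* introns stood apart from all others in both mice.

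**Figure D2:**
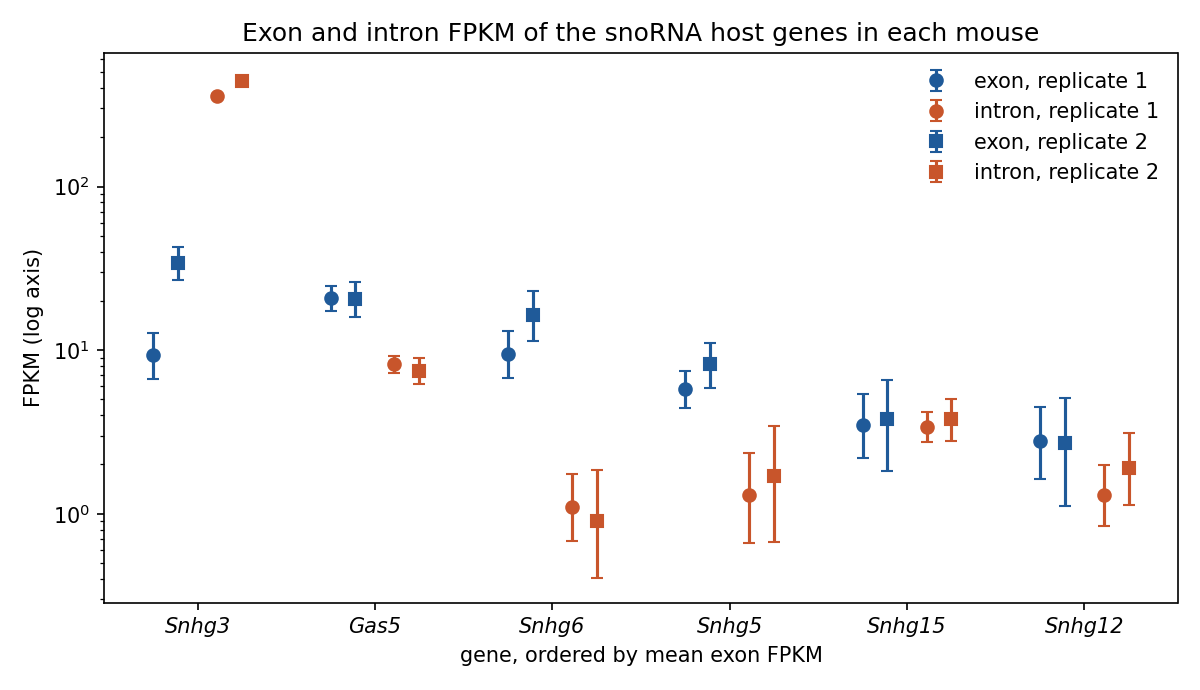
Exon (blue) and intron (orange) FPKM of the 6 genes on a log axis, circles for replicate 1 and squares for replicate 2, with 95% Poisson intervals from the approximate reads. The introns of *Snhg3*, at 356.3 and 444.4 FPKM, lie above its exons in both mice, and in the other 5 genes the introns lie at or below the exons.

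Set against the exons of the same library, *Snhg3* introns were 38.3-fold higher in replicate 1 (interval 28.1 to 53.3) and 13.0-fold higher in replicate 2 (interval 10.4 to 16.6). On the scale log2((intron + 0.1)/(exon + 0.1)), its mean was 4.47 ± 1.09 (SD, n = 2). The intron to exon ratio of *Snhg15* was 0.971 in replicate 1 (interval 0.596 to 1.64) and 1.00 in replicate 2 (interval 0.531 to 2.21), so that exons and introns were not distinguishable at this depth. *Snhg12* had ratios of 0.464 (interval 0.242 to 0.944) and 0.704 (interval 0.306 to 2.01). *Gas5* had 0.392 (interval 0.318 to 0.488) and 0.364 (interval 0.267 to 0.499). The values of *Snhg12* and *Gas5* did not overlap, but their counting intervals did. *Snhg5* was at 0.224 and 0.207. *Snhg6* was lowest, at 0.116 and 0.0549, with introns about as low against exons as in a typical gene.

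Introns exceeded exons in both mice in 1 of the 6 genes, *Snhg3*, beside 41 of 9876 genes tested (0.415%), those with a mean exon or intron FPKM of at least 1. The median log2 ratio was -1.08 for the 6 genes and -3.54 for all tested genes. By percentile among tested genes, *Snhg3* stood at 99.98, *Snhg15* at 99.4, *Snhg12* at 98.8, *Gas5* at 97.4, *Snhg5* at 91.1 and *Snhg6* at 50.8. The only tested gene with a higher ratio than *Snhg3* was *Rpl9*, a ribosomal protein gene listed at 0 exon FPKM in both mice with intron FPKM of 3.6 and 1.9.

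Other snoRNA hosts were near the other genes by median, and under the filter used a larger share of them had introns above exons. In 213 other tested hosts the median log2 ratio was -3.34, compared with -3.55 in 9537 genes without a snoRNA gene. Introns exceeded exons in both mice in 10 of these hosts (4.69%). The same held for 30 of the genes without a snoRNA gene (0.315%). Among the 10 hosts, *Rpl10*, *Rpl21*, *Tpt1*, *Rps13*, *Rpl23a* and *Rpl12* had mean exon FPKM of 0.15 to 0.65. They passed the filter through their introns only, which favors introns above exons in advance. Of all tested genes, 31 had a mean exon FPKM under 1, and 27 of these had introns above exons in both mice. The 201 coding hosts had a median of -3.42 and included all 10. The 12 noncoding hosts had a median of -0.66, higher than that of the 6 genes, and 0 of them had introns above exons in both mice. In 122 noncoding genes with introns but no snoRNA gene the median was -2.14, and 5 of them (4.10%) had introns above exons in both mice. Among 889 genes without a snoRNA gene whose summed introns lay between 835 and 3319 bp, the range of the 6 genes, the median was -3.76 and the count was 11 (1.24%). These groups differ in exon length and level, and the differences were not tested.

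The 3 genes with box H/ACA snoRNAs were *Snhg3*, *Snhg15* and *Snhg12*, and *Snhg12* also had 1 box C/D gene, *Snord99*. Their ratios were higher in both mice than those of *Gas5*, *Snhg5* and *Snhg6*, which had box C/D snoRNAs and none of box H/ACA. The values of these groups did not overlap, but the counting intervals of *Snhg12* and *Gas5* overlapped in both mice. This split was noticed in these values. Among the other hosts, 98 with only box H/ACA genes had a median log2 ratio of -3.46 and 46 with only box C/D genes had -3.47. Introns exceeded exons in both mice in 5 (5.10%) and 2 (4.35%) of them. Hosts with both classes, as in *Snhg12*, were in neither set, so this split is unlike that of the 6 genes. Their log2 ratios ran from -5.59 in *Rps12* to 1.61 in *Rpl5*. Restricted to hosts of snoRNA genes named Snora or Snord, a restriction added after the values were seen, the medians were -3.14 in 20 box H/ACA hosts and -3.68 in 33 box C/D hosts, and the counts were 5 (25%) and 2 (6.06%). In both sets the counted box C/D hosts were *Rps13* and *Rpl23a*, and the counted box H/ACA hosts included *Rpl10*, *Tpt1* and *Rpl12*. All of these had a mean exon FPKM under 1 and passed the filter through their introns only. The difference between the classes was not tested. Among the noncoding hosts, *Rab26os* and *1110038B12Rik*, both with box C/D genes, had the highest mean log2 ratios, 0.74 and 0.62, but both changed sign between the mice (1.87 and -0.40 for *Rab26os*, 1.46 and -0.22 for *1110038B12Rik*). The other box C/D hosts of this set, *Snhg18*, *2410006H16Rik*, *AI506816* and *Zfas1*, were the lowest, from -2.23 to -2.56. The noncoding hosts with box H/ACA genes, *Epb41l4aos*, *Snhg7*, *Snhg17* and *Snhg4*, lay between, from -0.24 to -1.46. Across the 6 genes, the log2 ratio had a Spearman rho of 0.66 with the snoRNA share of the introns and of 0.09 with the number of snoRNA genes (n = 6 genes, which share both libraries).

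**Figure D3:**
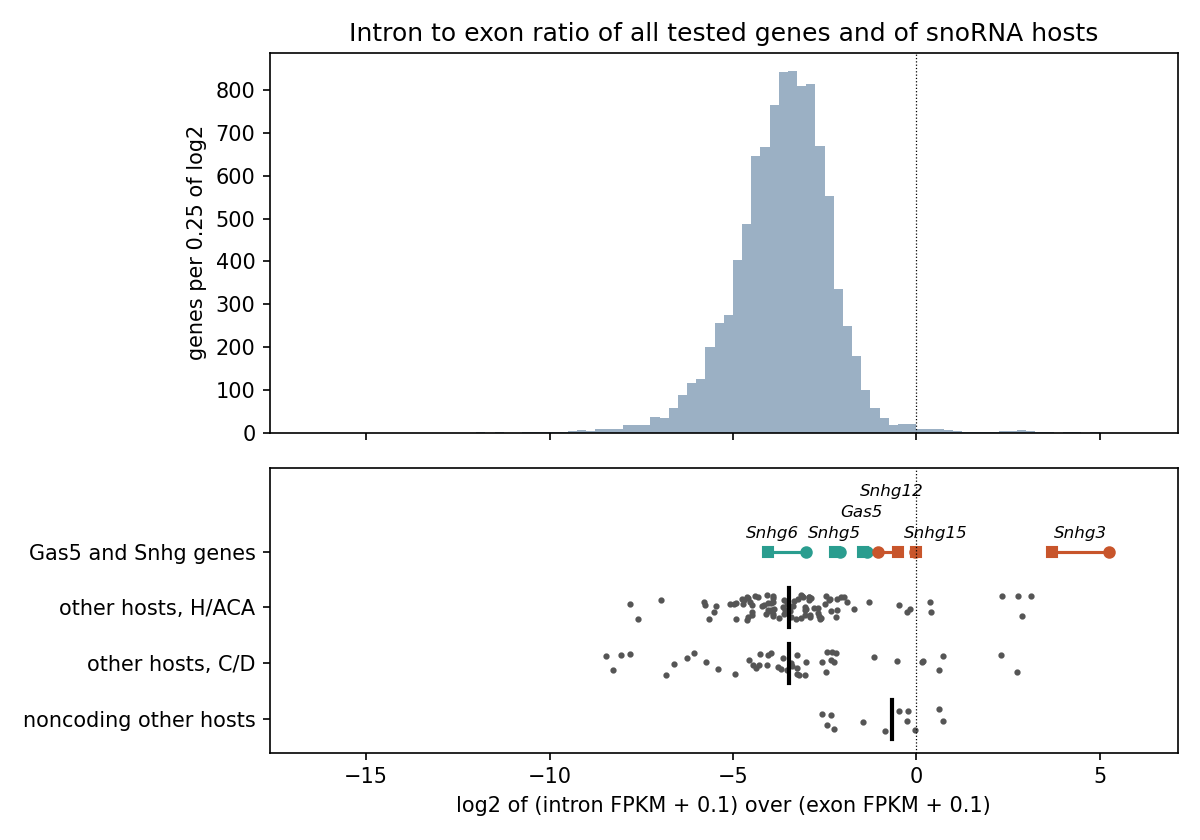
Upper panel, number of tested genes by mean log2 intron to exon ratio (9876 genes). Lower panel, the 6 genes by mouse (circle, replicate 1, square, replicate 2, orange, with box H/ACA genes, green, without), and means of the other hosts with a bar at each median. The medians are -3.46 for hosts with only box H/ACA genes, -3.47 for hosts with only box C/D genes and -0.66 for noncoding hosts. Some noncoding hosts also appear in the rows above. *Snhg3* stands at 3.70 and 5.24, and *Snhg6* at -4.04 and -3 lies in the middle of all genes.

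Some of these exons and introns share sequence with other places in the genome. In *Snhg3*, 32.3% of the intron bases matched another place in the genome at 95% identity over at least 50 bases, and all of them lay inside *Snhg3* itself, between the *Snora73* copies, while 12.1% of its exon bases matched elsewhere. In *Snhg5*, 45.5% of the intron bases matched outside the gene, and the *Snord50* genes had 4 further matches each in the genome. In *Snhg15*, 36.7% of exon and 32.5% of intron bases matched elsewhere, and in *Snhg12* 8.91% of exon bases. *Gas5* and *Snhg6* exons had no such match. How reads with several matches were counted is not stated, and its part in the ratios was not tested. The antisense gene *Zbtb37* overlaps *Gas5* without overlap of exons and had exon FPKM of 1.5 and 1.4. The strand setting of the counting is not stated either.

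Between the mice the exons of *Snhg3* differed most. They were 3.67-fold higher in replicate 2, a log2 difference of 1.77 at a pseudocount of 1, the 99.9th percentile of all genes, and the counting intervals of 6.70 to 12.7 FPKM and 26.9 to 42.7 FPKM did not overlap. Its introns were 1.25-fold higher in replicate 2, and with it the intron to exon ratio was lower there. *Snhg3* was the 1 gene of the 6 over 2-fold apart in exons, compared with 581 of 9845 genes that averaged at least 1 exon FPKM (5.9%). *Snhg6* exons were 1.73-fold and *Snhg5* exons 1.41-fold higher in replicate 2, with counting intervals that overlapped between the mice in both genes. *Gas5*, *Snhg12* and *Snhg15* had log2 exon differences of -0.02, -0.04 and 0.09. The median log2 exon difference was 0.26 for the 6 genes and -0.08 for all.

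These exon differences moved with base composition. Genes of low GC content tended to be higher in replicate 2 throughout the tables (Spearman rho -0.66 over 9725 genes), and the 6 genes had a rho of -0.83 (n = 6), with *Snhg3* lowest in GC content at 41.2%. *Snhg15*, the highest at 53.2%, departed from this order, with a difference above those of *Gas5* and *Snhg12*. After a lowess correction for GC content, *Snhg3* still differed by 1.44 on the log2 scale and *Snhg6* by 0.51. All 6 differences were then above 0, with a median of 0.32 compared with 0.00 for all genes. By that median, about as many of all genes lay above 0 as below it. *Snhg12* at 0.01 and *Gas5* at 0.02 lay in the middle of all genes, at percentiles 51.0 and 52.5. The part of RNA quality or library preparation was not tested.

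**Figure D4:**
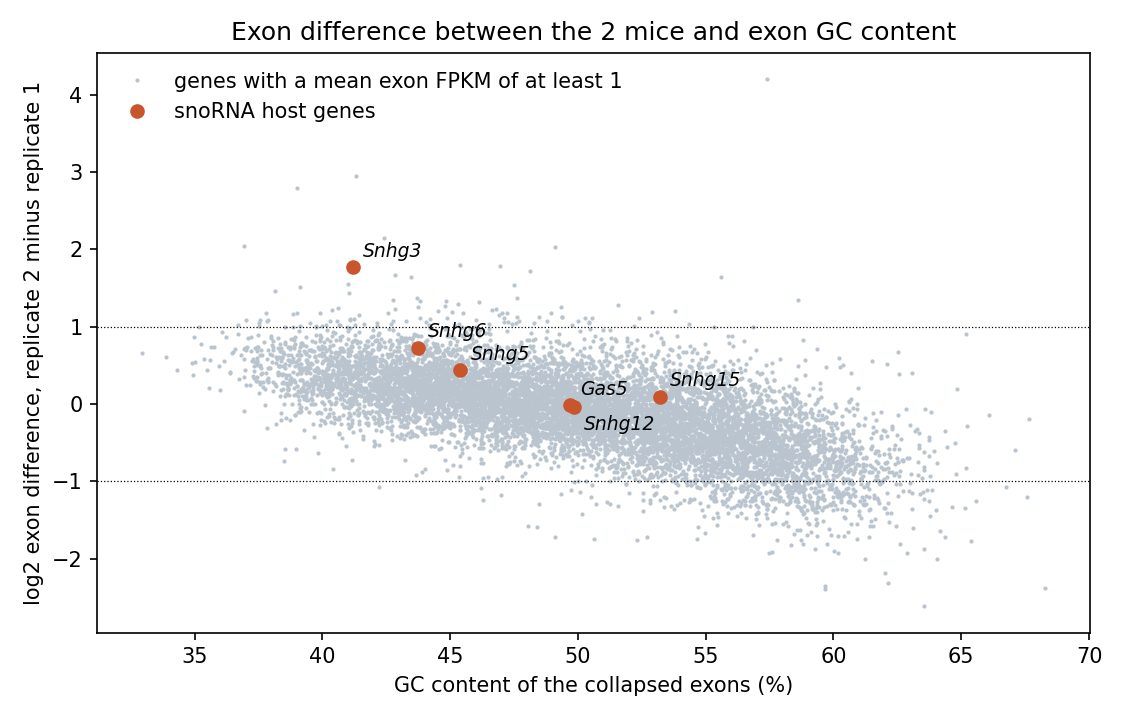
Log2 exon difference between the mice (replicate 2 minus replicate 1, pseudocount 1) against the GC content of the collapsed exons in percent, for genes that averaged at least 1 exon FPKM (gray) and the 6 genes (orange). *Snhg3* lies at 1.77, above the 2-fold line at 1, and the other 5 genes lie between -0.04 and 0.73.

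Of the introns of the 6 genes, 0 were over 2-fold apart between the mice, compared with 275 of 4220 genes that averaged at least 0.5 intron FPKM (6.52%). Their log2 differences at a pseudocount of 0.1 ran from -0.26 in *Snhg6* to 0.51 in *Snhg12*, with a median of 0.24 compared with 0.00 for all genes. In *Snhg3*, *Snhg5* and *Snhg6* the exons differed by more than the introns, and in *Gas5*, *Snhg12* and *Snhg15* the introns differed by more than the exons.

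The starts of several host genes are known for a terminal oligopyrimidine (TOP) tract, a C followed by further pyrimidines, which ties translation to mTORC1 signaling. The RefSeq table of gene starts on GRCm38.p6 had entries for 5 of the 6 genes, *Gas5* with 2 starts, and none for *Snhg6*. A tract was counted where a C at the start, or up to 5 bases after it, was followed by 4 bases of C or T, on the sense strand. It occurred at 2 of these 6 starts, shown with 10 bases before and 20 from the start and the tract in capitals.
Gas5, one of its starts: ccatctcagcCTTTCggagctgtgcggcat
Snhg3: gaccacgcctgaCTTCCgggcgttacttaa
The same rule held for 11.3% of all 32851 starts in the table, 18.9% of 201 starts of the other tested hosts and 31.5% of 73 starts of ribosomal protein genes. The start of *Snhg12* did not meet it.
Snhg12: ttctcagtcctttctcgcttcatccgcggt

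Genes with high intron FPKM were looked at next. Of 52 genes averaging at least 10 intron FPKM, 3 had introns above exons in both mice, and *Snhg3* had the highest ratio. A filter on introns favors high ratios in advance. The next by ratio were *Rpsa* with intron FPKM of 10.3 and 17.4 against exon FPKM of 4.7 and 0.7, *Rpl5*, *Eif4a1*, *Taf1d* and *Eif4a2*. All 5 host snoRNA genes, but the number of hosts among the 52 genes was not counted. Other hosts in this set had lower ratios, such as *Eif4g2* at a log2 ratio of -2.19 and *Tbrg4* at -2.68. *Rpsa* and *Rpl5* encode ribosomal proteins, *Eif4a1* and *Eif4a2* encode translation initiation helicases and *Taf1d* a factor for RNA polymerase I. The hosts outside the group with the highest exon FPKM were *Eef2*, *Rpl4*, *Rpl32*, *Atp5b* and *Tbrg4*. All had exons above introns, as most tested genes did, and their choice by exon FPKM favors this in advance. *Eef2* exons were at 764.1 and 340.6 FPKM and its introns at 2.4 and 1.4 FPKM. *Tbrg4*, whose body is driven by the *Wap* promoter on the mutant allele, had exon FPKM of 314.7 and 291.5 and intron FPKM of 43.4 and 51.4. *Snhg15* lies 86.8 kb from *Tbrg4* and 107 kb from *Wap* on the same chromosome, and its exons, at 3.5 and 3.8 FPKM, were among the lowest of the 6.

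By distance over the 4 log2 values of exon and intron in each mouse, the gene most like *Snhg3* was *Eif4a2*, at a distance of 5.28, with intron FPKM of 32.2 and 38.4. The other 5 had closer neighbours, at distances of 0.11 (*Cmtm3* for *Snhg5*) to 0.86 (*Klf15* for *Gas5*), with *Cnot6* nearest to *Snhg6*, *Rpl19* to *Snhg12* and *Lncppara* to *Snhg15*. None of these 5 hosts a snoRNA gene.

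Of 10 further Snhg genes looked up, 9 were listed and 5 were tested, with a median log2 ratio of -0.85 and none with introns above exons in both mice. *Snhg20* had exon FPKM of 3.3 and 2.6 and intron FPKM of 2.3 and 2.7, and *Snhg17* exon FPKM of 4.1 and 2.5 and intron FPKM of 2.5 and 1.2. *Snhg7* changed order between the mice, with introns above exons in replicate 1 (2.0 against 1.3 FPKM) and below them in replicate 2 (1.5 against 4.5 FPKM).

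Genes for the proteins that work with these RNAs had median ratios well below 1 in every list, as did all tested genes (median log2 ratio -3.54). All 4 box H/ACA protein genes were tested (median log2 ratio -4.92), with *Nop10* exons at 16.8 and 39.3 FPKM, *Nhp2* at 32.4 and 21.1 FPKM and *Dkc1*, the pseudouridine synthase, at 4.2 and 6.1 FPKM. Of the box C/D protein genes 3 were tested (median -3.06), with *Nop56* at 7.0 and 8.1 FPKM and *Nop58* at 6.9 and 8.1 FPKM, each itself a snoRNA host, while the methyltransferase gene *Fbl*, which did not pass the filter, had exon FPKM of 0.4 and 0 and intron FPKM of 0.4 and 0.3. Of 8 snoRNP assembly genes 7 were tested (median -2.74). All 10 genes of nonsense-mediated decay were tested, at mean exon FPKM of 2.60 (*Upf3b*) to 8.05 (*Smg1*), with a median log2 ratio of -3.50. All 7 genes of TOP binding and mTORC1 were tested (median -3.60), among them *Larp1*, which binds TOP tracts, at 23.7 and 21.7 FPKM. Of 4 listed nuclear noncoding RNAs without snoRNAs, 2 were tested, and they differed widely. *Xist* had exon FPKM of 33.9 and 65.7 and intron FPKM of 0.3 and 0.8 (log2 ratio -6.30). *Pvt1* had exon FPKM of 1.0 and 1.2 and intron FPKM of 0.2 in both mice (log2 ratio -1.99). None of the genes tested in these lists had introns above exons in both mice, beside 0.415% of all tested genes.

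The tissue label matched its markers. All 6 markers of secretory epithelium were present in both mice, from *Krt8* at 31.4 and 14.6 FPKM to the milk protein genes. Adipocyte markers differed widely, with *Fabp4* at 501.7 and 564.0 FPKM, *Adipoq* at 85.3 and 113 FPKM and *Plin1* at 7.8 and 2.6 FPKM. The endothelial pair was at 13.1 to 17.4 FPKM, and the 4 leukocyte markers at most 3.2 FPKM. Of the myoepithelial markers *Acta2* was listed at 0 in both mice, *Krt14* was at 17.9 and 5.4 FPKM and *Krt5* at 6.6 and 3.5 FPKM. The part of cell composition in the host gene values was not tested.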

How the data were processed

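Exon and intron values were used for 2 WT_wTbrg4 L10 mammary gland samples. The authors made stranded total RNA libraries with a TruSeq kit, mapped reads to mm10 with STAR, counted them with HTSeq separately over merged exons and over introns, and generated FPKM with DESeq2. The deposited FPKM values have 1 decimal. Versions, the handling of reads with several matches and the strand setting are not given in the sources used here.

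Of 20550 rows, 35 without a usable symbol were left out. Positions and lengths came from curated RefSeq transcripts on GRCm38 (98.2% of symbols matched) and snoRNA genes from GENCODE M21, chosen over shorter RefSeq entries after the data were seen. A snoRNA host has such a gene inside it on the same strand. Ratios used a pseudocount of 0.1, and a gene was tested at a mean exon or intron FPKM of at least 1. Mice were compared at a pseudocount of 1 (exons, mean of at least 1) or 0.1 (introns, mean of at least 0.5). GC content was removed by lowess over 30% of genes. With 1 group of 2 mice there is no test between groups and no p-value. The labels do not say more about the mice than their replicate numbers.

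The value of 1 read was fitted to FPKM times RefSeq length, an analysis added after the data were seen. Limits of 500, 700 and 1000 bp gave steps of 99.25 to 100 and 196.25 to 198.75. This implied about 12.1e6 and 11.3e6 exon reads, of which 4.91e6 and 2.48e6 lay outside the 10 highest genes. The FPKM scale of the 2 libraries thus did not follow their total exon reads. The step fit and the GC correction were tested on simulated data. The step was recovered within 2% in 9 of 10 runs. The same RefSeq lengths were used to simulate and to fit, so these runs could not show the effect of other lengths.

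Named genes were the 8 hosts, the nearest gene to each, the 5 highest ratios at a mean intron FPKM of at least 10, the 5 hosts with the highest exon FPKM, and lists of Snhg, snoRNP, decay, TOP and marker genes. The noncoding hosts and *Rpl9* named in the text were chosen after their values were seen. Members and lists were chosen with earlier results of these data known. Tools were blastn 2.17.0, samtools 1.23.1, statsmodels 0.14.6, scipy 1.17.1, matplotlib 3.10.9, pandas 2.3.3, numpy 2.4.6 and Python 3.11.15.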

Additional observations from a re-analysis of the deposited data

How the results depend on the processing

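A change was counted as none where a log2 ratio moved by less than the SD of the 2 mice, a log2 difference by less than 0.1 or a count by no more than 1.5-fold. Log2 ratios with 1 mouse left out are given as ranges only, since a mean of 2 mice cannot move by more than their SD. Of the 41 other alternatives, 27 stayed within this measure, 14 moved a value and 0 reversed a direction. *Snhg3* alone had introns above exons under every alternative, either mouse by itself included. With a pseudocount of 1, the log2 ratio moved to -1.30 for *Gas5*, -1.67 for *Snhg5* and -2.76 for *Snhg6*. Without *Snhg3*, a choice made after the data were seen, the median of the others was -1.39. With either mouse left out, the median of the 6 ran from -1.19 to -0.97, *Snhg3* from 3.70 to 5.24, *Snhg6* from -4.04 to -3.00, *Snhg12* from -1.05 to -0.49, *Gas5* from -1.45 to -1.34, *Snhg5* from -2.21 to -2.08 and *Snhg15* from -0.04 to 0.00.

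The background moved more. Genes with introns above exons in both mice numbered 114 of 14447 with no filter beyond a value above 0, 14 of 9845 averaging 1 exon FPKM or more and 3 of 3114 averaging 10 exon or intron FPKM or more. The exon filter by construction leaves out genes with low exons: it removed 31 genes, of which 27 had introns above exons in both mice. The median log2 ratio of all genes was -2.91 without the filter and -4.63 at 10 exon or intron FPKM or more. The median of the other hosts was -3.62 for those of named Snora or Snord genes and -0.66 for noncoding hosts, both chosen after the data were seen. Genes over 2-fold apart in exons between the mice numbered 1102 with a pseudocount of 0.1, 186 after the GC correction and 231 at 10 exon FPKM or more. No paired analysis was possible because only one group has RNA values.

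Depth limited *Snhg12*, the exons of *Snhg15* and the introns of *Snhg5* and *Snhg6*, which rested on about 7 to 23 reads. Read numbers are approximate, since they were computed with RefSeq lengths and not with those the authors used.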
